A study of Mus musculus with 10 samples.

Results

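The genes described here are the collagens, the laminins and a set of matrix glycoproteins and proteoglycans of the mouse cerebral cortex. They were chosen by symbol: every row named as a collagen chain (Col, a number, a, a number) or a laminin chain (Lama, Lamb or Lamc with a number), together with Nid1, Nid2, Hspg2, Agrn, Fn1, Fbln1, Fbln2, Fbln5, Sparcl1, Tnc, Tnr, Dcn, Bgn, Ogn and Fmod. This gave 54 of the 12575 genes in the table, and Lum, the remaining name of the rule, was not analysed here. The rule uses symbols alone, but it was chosen with earlier results of these data known. All 54 passed the filter on low values, as did 12573 of the 12575 genes. The filter asked for more than 1 CPM (the share of a library's reads, scaled to a common total) in at least 4 libraries. Of the members, 53 were above 1 CPM in every library, beside 12541 of all genes.

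Cortical RNA was sequenced from 5 BMAL1 aKO mice (Aldh1l1-Cre ERT2;Bmal1 fl/fl) and 5 littermates without Cre (Cre-;Bmal1 fl/fl), C57BL/6 animals labelled as 4 months old, an age that the study's text puts slightly higher. Both groups carried floxed Bmal1 and both received tamoxifen, so they differ in the Cre transgene, which is driven by the promoter of the astrocyte gene Aldh1l1 and is switched on by tamoxifen. The comparison asks which cortical transcripts differ once astrocytes lose the clock transcription factor BMAL1. The study's staining found the loss from astrocytes to be partial, its text counts fewer BMAL1 aKO mice than the labels, and neurons and other cells keep the gene. Arntl, the gene symbol of Bmal1, was between 31.1 and 38.8 CPM in BMAL1 aKO and between 31.9 and 37.1 CPM in Cre- cortex, so its level in whole tissue does not check the labels.

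Matrix genes fall into roles that the text follows. Basement membranes are thin sheets around blood vessels and under the pia, built from type IV collagen, laminin trimers, nidogens and the proteoglycans perlecan and agrin, and astrocyte endfeet rest on them. Fibrillar collagens (types I, II, III, V, XI, XXIV and XXVII) and small leucine-rich proteoglycans such as decorin form the interstitial matrix, which in the brain lies mainly in the meninges and around large vessels and is made by fibroblasts. Tenascins and the SPARC-like protein Sparcl1 belong to the loose matrix between neurons and glia, to which astrocytes and oligodendrocytes contribute.

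Promoter sequences are shown for 4 members because the results return to them: Col4a1 and Col4a2, which start head to head, Col5a3, which had the smallest p of all members, and Fbln1, the only member whose windows hold the E-box bound by BMAL1. Each runs from 250 bases before the annotated start to 50 after it (RefSeq, GRCm38.p6), 5′ to 3′ on the gene's own strand. Capitals mark every match, on either strand, to 4 motifs: CACGTG (the E-box), CCAAT, as well as GGGCGG (the GC box) and finally TATAAA, and no 2 matches overlap in the windows shown. The windows lie at chr8:11312777-11313076 on the minus strand (Col4a1), chr8:11312555-11312854 on the plus strand (Col4a2), chr9:20815018-20815317 on the minus strand (Col5a3) and chr15:85205699-85205998 on the plus strand (Fbln1). A further Fbln1 window, at chr15:85205758-85206057, overlaps the one shown and is not printed. It holds the same CACGTG and also GGGCGG matches.
Col4a1: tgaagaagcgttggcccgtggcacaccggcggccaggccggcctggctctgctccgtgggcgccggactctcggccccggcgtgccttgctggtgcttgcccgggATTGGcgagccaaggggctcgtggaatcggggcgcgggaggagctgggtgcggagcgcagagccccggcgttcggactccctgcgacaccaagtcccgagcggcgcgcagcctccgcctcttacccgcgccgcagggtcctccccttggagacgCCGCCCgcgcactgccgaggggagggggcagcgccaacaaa
Col4a2: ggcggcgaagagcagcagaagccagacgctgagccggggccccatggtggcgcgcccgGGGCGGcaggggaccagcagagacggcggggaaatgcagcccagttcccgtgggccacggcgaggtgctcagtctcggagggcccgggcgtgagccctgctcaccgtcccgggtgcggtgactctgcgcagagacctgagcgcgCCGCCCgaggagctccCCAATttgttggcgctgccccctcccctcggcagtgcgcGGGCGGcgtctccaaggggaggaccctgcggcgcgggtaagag
Col5a3: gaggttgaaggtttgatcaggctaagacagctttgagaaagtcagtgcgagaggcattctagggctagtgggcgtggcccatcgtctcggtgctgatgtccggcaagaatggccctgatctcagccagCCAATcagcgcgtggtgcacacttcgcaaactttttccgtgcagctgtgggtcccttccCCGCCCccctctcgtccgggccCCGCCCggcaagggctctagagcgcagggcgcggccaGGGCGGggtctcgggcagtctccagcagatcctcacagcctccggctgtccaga
Fbln1: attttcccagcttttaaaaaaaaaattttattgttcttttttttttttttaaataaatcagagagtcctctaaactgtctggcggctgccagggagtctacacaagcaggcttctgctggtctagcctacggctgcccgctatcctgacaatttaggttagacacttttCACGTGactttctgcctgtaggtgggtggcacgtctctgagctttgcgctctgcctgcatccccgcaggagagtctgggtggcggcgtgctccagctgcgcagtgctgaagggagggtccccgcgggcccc
The Col4a1 and Col4a2 windows share 78 bases, read on opposite strands, since the gene starts lie 21 bases apart. Of the 54 members, 39 had a promoter window in the table used. A gene with more than 1 window was counted once, as holding a motif when any of its windows did. CACGTG was present in 1 of these 39 (2.56%), against 11.8% of the 9725 tested genes with a window. CCAAT was present in 38.5% of the members and 42.7% of the tested genes, GGGCGG in 74.4% and 70.0%, and TATAAA in 7.69% and 8.37%. These are matches to letters in a short window and not binding sites, and a window without a match says nothing of the factor. The median GC content was 60.3% in the members' windows and 61.3% in those of all tested genes.

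Levels between genes were compared as CPM per kilobase of annotated exon (GENCODE M21, GRCm38), as the mean of all 10 libraries. Sparcl1, a secreted glycoprotein that astrocytes use to promote synapse formation, stood far above the rest at 737 CPM per kilobase. Next came Col6a1, a chain of the beaded filaments of type VI collagen, at 22.6, and Agrn, the heparan sulfate proteoglycan agrin, at 18.01. The main vascular basement membrane collagens Col4a2 and Col4a1 stood at 11.2 and 6.44, fibronectin (Fn1) at 6.51 and the laminin gamma 1 chain Lamc1 at 5.54. Col7a1, which forms anchoring fibrils in skin, was the lowest at 0.324.

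Within the laminins, the levels were those of Lamc1 (5.54 CPM per kilobase) and Lamb2 (4.88), whose ranges over libraries overlap, and then of Lamb1 (2.01). The alpha chains, of which each laminin trimer holds 1, were lower when taken singly. Lama2 was at 1.34, Lama5 and Lama3 at 1.19 each, Lama4 at 0.968 and Lama1 at 0.525 CPM per kilobase, each overlapping its neighbour in this order. Their levels were not added up, so these values do not give the balance of alpha to gamma chains. Among the fibrillar collagens the order was led by Col5a1 (3.68) and Col11a2 (2.82), while the type I chains Col1a1 and Col1a2, the major collagen of fibroblasts, stood at 1.36 and 0.937. Each fibrillar collagen overlapped the next in the order.

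**Figure D1:**
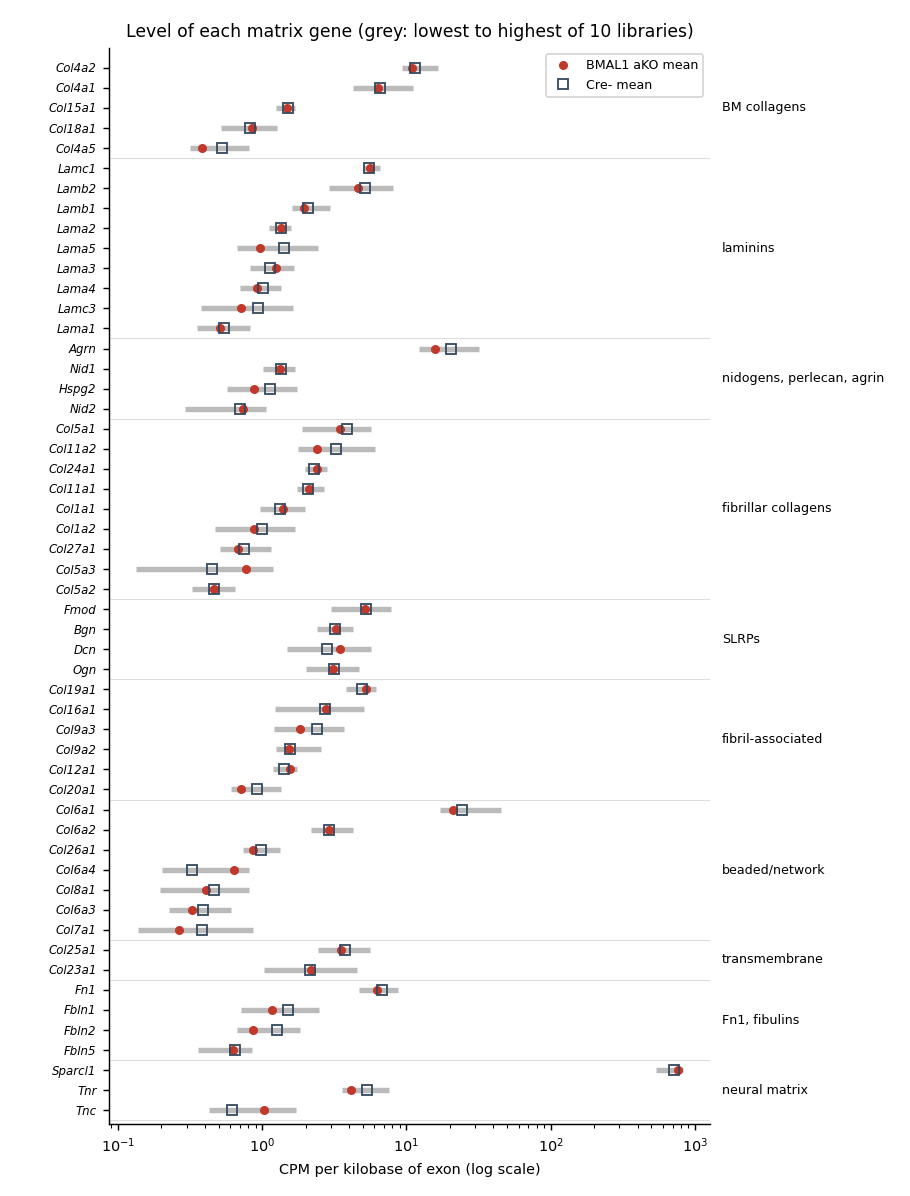
CPM per kilobase of exon (log axis) for 53 of the 54 matrix genes, grouped by role. Filled red points are BMAL1 aKO means, open squares Cre- means and grey bars the range of all 10 libraries. Sparcl1 lies at 737 CPM per kilobase and every other gene at or below 22.6.

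No member passed the threshold between BMAL1 aKO and Cre- cortex. With all 10 libraries and an adjusted p of at most 0.1 (limma on log2(CPM + 0.5) with a quality weight per library, Benjamini-Hochberg over 12573 genes), 0 of 54 were called, where 42 of all genes tested (0.334%) were. The smallest adjusted p of a member was 0.149. At an unadjusted p below 0.05 there were 3 members (Col5a3 and Lama3 higher, Tnr lower in BMAL1 aKO), where 16.8% of all genes tested were below it. A fit with voomWithQualityWeights on the reads recovered from the CPM called 0 of the 54 members. It had 5 below an unadjusted p of 0.05, beside 1310 of all 12573 genes tested. The fit without weights called 0, with 2 below it, beside 602 of all 12573 genes. In no member did the libraries of the 2 groups fail to overlap, while 1% of all genes tested had groups apart.

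The 54 log2 fold changes ran from -0.31 (Fbln1) to 0.91 (Col5a3), with a median of 0.02 beside -0.04 over all genes tested. There were 30 members with a positive and 24 with a negative value, that is 55.6% positive beside 38.4% of all genes, but without weights 18 were positive and the median was -0.05. The 95% interval of the fold change lay within 0.5 either way on the log2 scale for 38 members and within 1 for 53, and the median standard error was 0.15. In this weighted fit, doublings or halvings were outside the interval of every member except Col5a3, whose interval ran from 0.41 to 1.41. The intervals depend on the weights, so they do not exclude such changes. For Col6a4 the unweighted log2 difference of 0.91 lay above its weighted interval of -0.02 to 0.85.

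When BMAL1 aKO replicate 3 was left out, 2 members passed, both higher in BMAL1 aKO, while 2.7% of all genes tested were called higher. These were Col5a3 (log2 fold change 1.01, adjusted p = 0.0616, limma) and Tnc (0.64, adjusted p = 0.0758, limma). Leaving out any other single library called 0 members. The counts over all genes moved just as much: 844 genes passed without BMAL1 aKO replicate 3 and 1 without Cre- replicate 1.

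**Figure D2:**
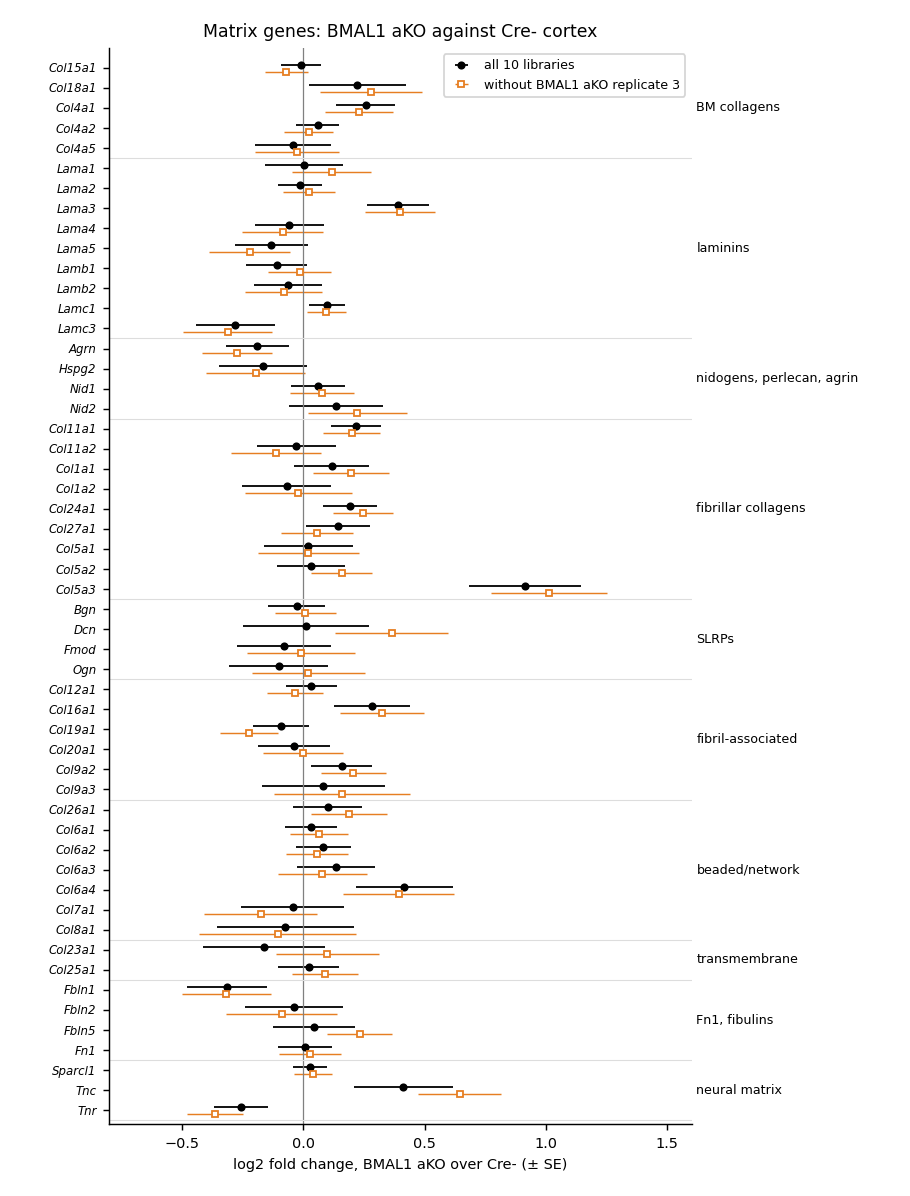
Log2 fold change of BMAL1 aKO over Cre- with its standard error for 53 of the 54 matrix genes, grouped by role. Black points are the fit of all 10 libraries and orange squares the fit without BMAL1 aKO replicate 3. Most lie within 0.5 of 0, and Col5a3 at 0.91 is the farthest from it.

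The libraries behind these values were unequal. Cre- replicate 3 had the highest value of all 10 libraries for 30 of the 54 members (55.6%), beside 39.9% of all genes, and its member median lay 0.64 above the other libraries on the log2 scale, beside 0.15 over all genes. Cre- replicate 2 was lowest for 21 members (38.9%), beside 28.3% of all genes. The standard deviation of log2 values was larger in Cre- than in BMAL1 aKO for 41 of 54 members, and still for 32 without Cre- replicate 3. The same count was not made over all genes, so whether the wider Cre- spread is particular to the matrix genes was not tested. The fit gave weights of 0.714 to 1.79 to the BMAL1 aKO libraries, and of 7.19, 0.454, 0.181, 0.519 and 1.52 to Cre- replicates 1 to 5, so a fitted fold change mostly compares the BMAL1 aKO libraries with Cre- replicate 1. Total reads, inferred from the CPM, were 23127338 to 47964460 in BMAL1 aKO and 21844770 to 48295715 in Cre- libraries.

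Markers of other tissue and cell types moved with some of these libraries. The summed level of 7 striatal neuron markers was 439 to 855 CPM in BMAL1 aKO, against 356 to 1629 CPM in Cre-, with the top value in Cre- replicate 3. The 4 choroid plexus markers measured, among them Ttr, summed to 1080 CPM in BMAL1 aKO replicate 1 and to at most 35.5 CPM in the other BMAL1 aKO libraries, against 944 CPM in Cre- replicate 5, 288 CPM in Cre- replicate 4 and at most 42.8 CPM in the rest. The 13 meningeal and perivascular fibroblast markers summed to 630, 900.5 and 1078 CPM (lowest, median, highest) in BMAL1 aKO, against 651, 738 and 836 CPM in Cre-. Most of that sum was Ptgds, at 445 to 816 CPM in BMAL1 aKO and 438 to 570.0 CPM in Cre-, and the other 12 summed to 185, 262 and 307 CPM in BMAL1 aKO, against 204, 249.6 and 283 CPM in Cre-. The 12 endothelial markers summed to 262, 318 and 343 CPM in BMAL1 aKO, against 271, 325 and 351 CPM in Cre-. No marker measured of these 4 lists was at 0 in any library, and none passed the threshold. Of the other marker lists, 1 of 12 astrocyte markers was called higher in BMAL1 aKO (smallest adjusted p = 0.0273, limma). Of the pericyte and smooth muscle, oligodendrocyte, microglial and cortical excitatory neuron markers, 0 were called. All 9 oligodendrocyte log2 fold changes were positive (median 0.20), or 6 without weights. Summed microglial markers were highest in Cre- replicate 3, at 349 CPM. The part of any of these markers in the values of the matrix genes was not tested. In whole tissue, fewer cells of a type and less RNA per cell cannot be told apart.

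**Figure D3:**
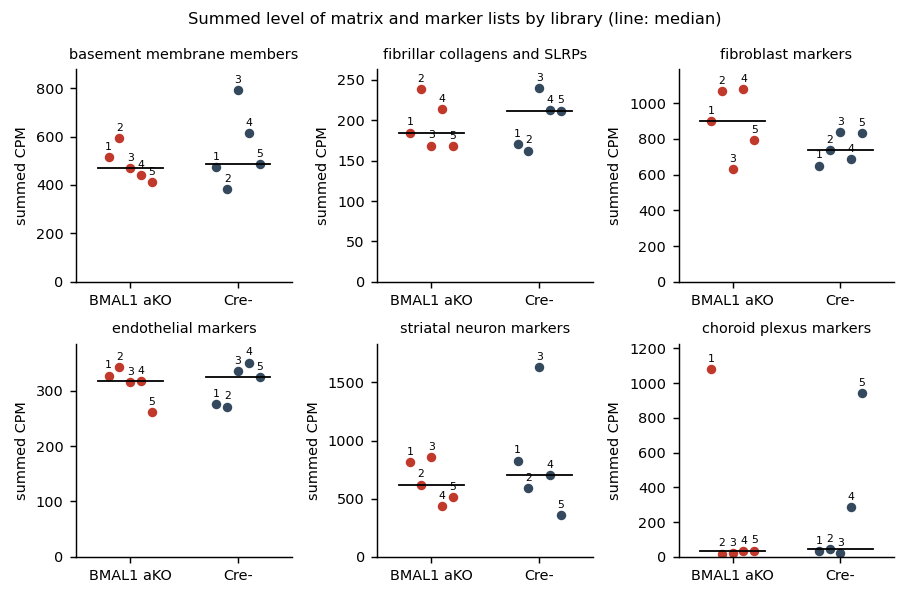
Summed CPM per library of the basement membrane members, of the fibrillar collagens with small leucine-rich proteoglycans (SLRPs) and of 4 marker lists, BMAL1 aKO left and Cre- right, numbered by replicate, with a line at the median. Cre- replicate 3 is highest for the basement membrane members (792 CPM) and the striatal markers (1629 CPM).

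The 5 basement membrane collagens were Col4a1, Col4a2, Col4a5, Col15a1 and Col18a1, and 0 of them passed (median log2 fold change 0.06). Col4a1 measured 50.1, 59.2, 44.7, 38.9 and 43.8 CPM in BMAL1 aKO mice, in the order of their replicate numbers, against 36.5, 31.9, 82.6, 53.6 and 39.5 CPM in Cre- mice. The Cre- libraries enclosed all BMAL1 aKO libraries. The fitted log2 fold change was 0.26 (95% interval -0.01 to 0.52, adjusted p = 0.308, limma), but the means were 47.3 ± 7.74 and 48.8 ± 20.6 CPM (SD, n = 5 each) and the exact permutation test over libraries gave p = 0.937. Without weights the log2 fold change was 0.03.

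Col4a2, which makes up the same collagen IV trimer with Col4a1, was at 84.3, 83.2, 70.3, 61.2 and 65.3 CPM in BMAL1 aKO, against 66.5, 61.6, 109, 75.9 and 66.8 CPM in Cre- libraries. Its log2 fold change was 0.06 (95% interval -0.14 to 0.25), and the groups overlapped. The head-to-head pair also ran together across libraries. The ratio of Col4a2 to Col4a1 in CPM per kilobase of exon was 1.58 to 1.90 in BMAL1 aKO and 1.49 to 2.18 in Cre-. The length counts all annotated exons of a gene, so this is not a ratio of transcript numbers. Over the 10 libraries the log2 levels of Col4a2 and Col4a1 had Pearson r = 0.94 (adjusted p = 0.00144) and Spearman rho = 0.88 (adjusted p = 0.0140, permutation tests, adjusted over 8 pairs of chains). Pearson r was 0.91 without the 2 libraries farthest from the Col4a2 median. For the other pairs, the 2 farthest were taken on the gene named first. The 8 pairs were chosen after their values were seen. Pairs of unrelated members were not compared, so it was not tested whether the correlation is particular to this pair. The Col4a1 and Col4a2 exons overlap by 22 bases on opposite strands, 0.295% of the Col4a1 exons, and reads there cannot be assigned by strand with this kit.

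Col18a1, the collagen from which endostatin is cut, was at 7.48, 8.92, 4.07, 4.19 and 5.09 CPM in BMAL1 aKO, against 3.95, 3.62, 8.20, 6.96 and 5.96 CPM in Cre- libraries. It varied far more within than between groups, with means of 5.95 ± 2.15 CPM in BMAL1 aKO and 5.74 ± 1.96 CPM in Cre- (SD, n = 5 each). The log2 fold change was 0.22 (95% interval -0.21 to 0.65), or 0.05 without weights. Col15a1, a related collagen of vascular basement membranes, was the steadiest of the 54 genes, with a coefficient of variation of 8.86% over 10 libraries and means of 9.50 ± 0.70 CPM in BMAL1 aKO and 9.57 ± 1.05 CPM in Cre- (SD, n = 5 each). Col4a5, a chain of the other collagen IV networks, averaged 2.56 ± 0.51 CPM in BMAL1 aKO and 3.51 ± 1.26 CPM in Cre-.

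Of the 10 laminin chains, 0 passed, 3 had positive and 7 negative log2 fold changes, and the median was -0.06. Lama3, an alpha chain best known from epithelial basement membranes, was at 15.0, 14.7, 12.3, 14.2 and 10.5 CPM in BMAL1 aKO, against 9.09, 8.79, 17.9, 13.4 and 11.6 CPM in Cre-. The highest library was again Cre- replicate 3, and the groups overlapped. Its log2 fold change was 0.39 (95% interval 0.12 to 0.66, adjusted p = 0.183, limma), while the exact permutation test gave p = 0.421. An antisense gene covers 1.83% of its exons.

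Lamc3 was at 4.67, 5.81, 4.10, 3.68 and 3.58 CPM in BMAL1 aKO, against 5.36, 2.29, 10.0, 6.17 and 4.69 CPM in Cre- (log2 fold change -0.28, adjusted p = 0.384, limma), with both the lowest and the highest value in Cre- libraries. Of the Lamc3 exon bases, 6.27% overlap an antisense gene. The most abundant chain, Lamc1, which is part of most laminin trimers, was at 46.7, 54.3, 43.7, 43.1 and 42.6 CPM in BMAL1 aKO and 41.3, 42.3, 53.4, 48.2 and 42.7 CPM in Cre- libraries, and its interval of -0.06 to 0.25 was among the narrowest.

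Of the laminins of vessels and pia, none passed. Lama2, an alpha chain of astrocyte and fibroblast basement membranes, averaged 22.0 ± 3.10 CPM in BMAL1 aKO and 22.0 ± 2.01 CPM in Cre-. The endothelial alpha chains Lama4 and Lama5 averaged 11.1 ± 2.03 and 11.05 ± 1.497 CPM in BMAL1 aKO, against 12.2 ± 2.63 and 16.0 ± 8.07 CPM in Cre- (SD, n = 5 each). The wide Lama5 spread came from 27.9 and 20.4 CPM in Cre- replicates 3 and 4, and its log2 fold change was -0.13 (95% interval -0.46 to 0.19), or -0.39 without weights. Over the 10 libraries of both groups, Lamb2 and Lamc1 had r = 0.82 (adjusted p = 0.00763, permutation test), and 0.76 without the 2 farthest. For Lamb1 and Lamc1 r was 0.58 and turned to -0.43 without the 2 farthest, Cre- replicate 3 and BMAL1 aKO replicate 2. Both pairs are among the 8 chosen after their values were seen. Pairs of unrelated members were not compared, so it was not tested whether these correlations are particular to the chains.

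The nidogens and proteoglycans that link laminin to collagen IV had 0 of 4 past the threshold. Agrn was at 151, 191, 150.5, 119 and 120.0 CPM in BMAL1 aKO, against 159.6, 113, 294, 223 and 153 CPM in Cre-. The means were 146 ± 29.3 and 188 ± 70.9 CPM (SD, n = 5 each), the log2 fold change was -0.19 (95% interval -0.47 to 0.09), and the groups overlapped. Hspg2, which encodes perlecan, was at 15.9, 17.3, 10.8, 10.4 and 8.46 CPM in BMAL1 aKO and 12.5, 8.15, 25.0, 23.1 and 12.7 CPM in Cre-. Nid2 was at 4.82, 5.08, 2.64, 3.68 and 2.69 CPM in BMAL1 aKO and 3.09, 1.51, 5.34, 5.51 and 2.61 CPM in Cre-, and 8.45% of its exon bases overlap Rtraf on the other strand. Neither Hspg2 (log2 fold change -0.17) nor Nid2 (0.13) passed the threshold.

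Of 11 fibrillar collagens listed, 9 were measured, and Col2a1 and Col3a1 were not. Among the 9, 0 passed, 7 log2 fold changes were positive and the median was 0.12. Without weights 4 were positive and the median was -0.01. Col5a3, the alpha 3 chain of type V collagen, which regulates fibril diameter, had the largest fold change of all members. It was at 6.90, 8.15, 3.18, 3.81 and 4.16 CPM in BMAL1 aKO, against 2.03, 0.916, 5.98, 4.04 and 2.30 CPM in Cre-. The top values were in BMAL1 aKO replicates 1 and 2 and the lowest in Cre- replicates 1, 2 and 5, but Cre- replicates 3 and 4 lay among the BMAL1 aKO libraries.

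The means of Col5a3 were 5.24 ± 2.16 CPM in BMAL1 aKO and 3.05 ± 1.98 CPM in Cre- (SD, n = 5 each). The log2 fold change was 0.91 (SE 0.23, with an adjusted p of 0.149 in limma), the unweighted difference 0.80, and the exact permutation test gave p = 0.119. Besides the fit without BMAL1 aKO replicate 3, it passed after quantile normalization (1.11, adjusted p = 0.0720, limma), and over 23 alternatives the fold change ran from 0.65 to 1.30 and the adjusted p from 0.0616 to 0.925. Its promoter window, printed above, holds CCAAT and GGGCGG matches and no CACGTG.

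The partners of Col5a3 in type V collagen did not pass either. Col5a1, the most abundant fibrillar chain, was at 23.4, 36.2, 28.9, 29.1 and 29.9 CPM in BMAL1 aKO, against 26.3, 16.1, 28.7, 48.1 and 46.1 CPM in Cre- (log2 fold change 0.02, 95% interval -0.38 to 0.42). Col5a2 averaged 4.45 ± 1.10 CPM in BMAL1 aKO and 4.42 ± 0.71 CPM in Cre- (SD, n = 5 each). Between Col5a1 and Col5a2, r over the libraries was 0.06 (adjusted p = 0.882, permutation test), and 0.40 without the 2 farthest.

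Col11a1, a minor fibrillar chain also made by neurons, was at 22.2, 27.1, 28.5, 26.4 and 30.5 CPM in BMAL1 aKO and 22.2, 22.6, 34.4, 23.8 and 30.0 CPM in Cre-. Its log2 fold change of 0.22 (adjusted p = 0.309, limma) became -0.02 without Cre- replicate 1. Col24a1 was at 16.2, 18.5, 17.2, 20.7 and 19.3 CPM in BMAL1 aKO and 15.0, 15.5, 16.8, 18.9 and 21.4 CPM in Cre- (log2 fold change 0.19, adjusted p = 0.380, limma). The groups overlapped for both. The type I chains averaged 9.12 ± 2.81 CPM (Col1a1) and 10.9 ± 3.45 CPM (Col1a2) in BMAL1 aKO, against 8.78 ± 2.44 and 12.4 ± 4.83 CPM in Cre- (SD, n = 5 each), and the groups overlapped.

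The 4 small leucine-rich proteoglycans, which bind collagen fibrils, gave intervals of up to 0.57 either way and 0 calls. Ogn was at 6.505, 9.64, 6.15, 12.02 and 5.16 CPM in BMAL1 aKO and 7.50, 9.02, 5.51, 6.31 and 11.9 CPM in Cre-. Fmod was at 14.7, 25.8, 13.6, 21.9 and 9.89 CPM in BMAL1 aKO and 16.5, 10.1, 22.3, 18.7 and 18.5 CPM in Cre-, and Bgn at 22.3, 25.8, 16.4, 19.6 and 14.7 CPM in BMAL1 aKO and 18.5, 16.3, 21.8, 21.5 and 20.3 CPM in Cre-. In all 3 the BMAL1 aKO libraries spread on both sides of the Cre- median. Dcn, the decorin gene of meningeal fibroblasts, was highest in BMAL1 aKO replicate 4 at 33.0 CPM and lowest in Cre- replicate 3 at 8.63 CPM, the library in which Col1a2 was highest at 21.02 CPM.

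The basement membrane and the fibrillar genes were then set side by side. The fibrillar list is not confined to meningeal genes, since it holds Col11a1, also made by neurons, and it lacks Col3a1. The 19 basement membrane members had a median log2 fold change of -0.01 (from -0.28 for Lamc3 to 0.39 for Lama3, 8 positive and 11 negative), and the 13 fibrillar collagens and small leucine-rich proteoglycans one of 0.02 (from -0.10 for Ogn to 0.91 for Col5a3, 8 positive and 5 negative). Without BMAL1 aKO replicate 3 the medians were -0.01 and 0.06. Within a library, the basement membrane median minus the fibrillar median (log2 values relative to each gene's own mean) was -0.13 to 0.15 in BMAL1 aKO, with a median of -0.02, against -0.07 to 0.19 in Cre-, with a median of 0.06, so the groups overlapped.

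Summed over genes, the basement membrane members reached 412, 470 and 593 CPM (lowest, median, highest) in BMAL1 aKO, against 384, 486 and 792 CPM in Cre-. The fibrillar collagens and small leucine-rich proteoglycans reached 168, 185 and 239 CPM in BMAL1 aKO, against 162, 212 and 240 CPM in Cre-. Cre- replicate 3 was highest for 12 of the 19 basement membrane members and for 4 of the 13 others. No test was made of that difference between the lists.

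**Figure D4:**
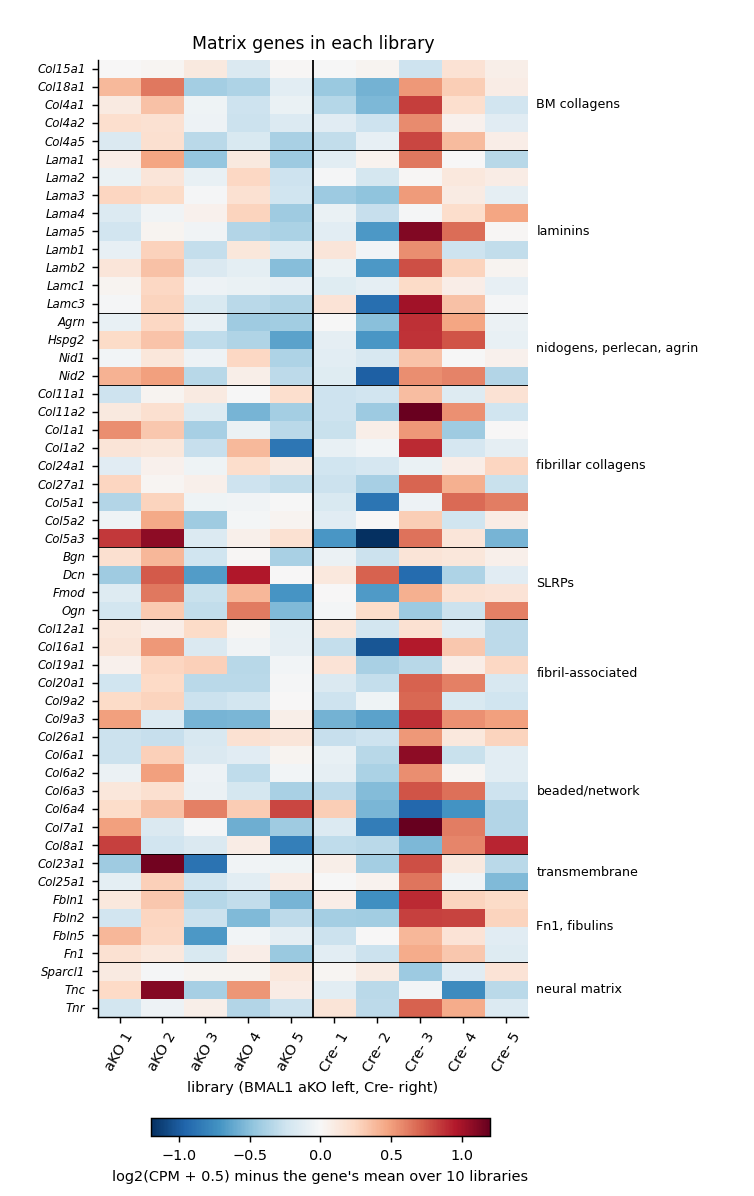
Log2(CPM + 0.5) of 53 of the 54 matrix genes, each minus its own mean, in the 5 BMAL1 aKO libraries (left) and the 5 Cre- libraries (right), with red for higher and blue for lower. Cre- replicate 3 is the highest library for 30 of all 54 genes and Cre- replicate 2 the lowest for 21.

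The 6 fibril-associated collagens gave 0 calls and a median of 0.06. Col16a1 was at 19.5, 25.2, 15.4, 17.0 and 16.2 CPM in BMAL1 aKO, against 14.2, 8.33, 34.2, 22.0 and 13.9 CPM in Cre-, where the Cre- values enclosed the others (log2 fold change 0.28, adjusted p = 0.368, limma). Col19a1, a collagen made by interneurons, was at 35.9, 41.3, 42.0, 27.2 and 33.8 CPM in BMAL1 aKO and 38.6, 26.2, 27.4, 36.5 and 41.2 CPM in Cre-, and Col9a2 at 5.59, 5.77, 3.86, 3.98 and 4.73 CPM in BMAL1 aKO and 3.89, 4.53, 7.87, 4.09 and 3.91 CPM in Cre-. Their log2 fold changes of -0.09 and 0.16 lay within the spread between libraries. Col9a3, of which 6.07% of exon bases overlap Tcfl5 on the other strand, had its 4 highest values in the 3 libraries with raised choroid plexus markers and in Cre- replicate 3.

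Of the 7 beaded filament and network collagens 0 passed, but Col6a4 came near to a separation of the groups. This chain of type VI collagen was at 4.48, 4.95, 6.02, 4.80 and 6.95 CPM in BMAL1 aKO, against 4.76, 2.43, 1.73, 2.10 and 2.86 CPM in Cre-. Cre- replicate 1 alone reached the BMAL1 aKO range. The means were 5.44 ± 1.022 and 2.77 ± 1.187 CPM (SD, n = 5 each), the unweighted log2 difference was 0.91 and the exact permutation test gave p = 0.0159, where 0.00794 is the smallest that 5 against 5 allows.

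The weighted fit gave Col6a4 a log2 fold change of 0.42 (95% interval -0.02 to 0.85, adjusted p = 0.309, limma), and the overlapping library is the one with the weight of 7.19. Over 24 alternatives the fold change ran from 0.32 to 0.99 and the adjusted p from 0.184 to 0.815, so it passed in none. The exact p is not adjusted for the 54 members. Of its exon bases, 3.39% overlap genes on the other strand.

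The other type VI chains did not pass. Col6a1 was at 79.1, 116, 83.9, 86.1 and 96.7 CPM in BMAL1 aKO and 89.0, 75.0, 199, 78.4 and 86.8 CPM in Cre- (log2 fold change 0.03, 95% interval -0.20 to 0.26). Col6a2 was at 22.6, 33.6, 22.8, 19.2 and 23.2 CPM in BMAL1 aKO and 21.9, 18.1, 35.2, 24.0 and 21.6 CPM in Cre-, and Col6a3 at 4.55, 4.74, 3.89, 3.46 and 3.01 CPM in BMAL1 aKO and 3.19, 2.70, 7.26, 6.77 and 3.37 CPM in Cre-. These 3 chains, which assemble together, had their top value in Cre- replicate 3, whereas Col6a4 had its lowest there. Col6a1 and Col6a2 had r = 0.84 over the libraries, and r = 0.32 without the 2 farthest. Col8a1, a short-chain network collagen, had its 3 highest values in the 3 libraries with raised choroid plexus markers, at 5.88 CPM in BMAL1 aKO replicate 1 and at 6.30 and 4.91 CPM in Cre- replicates 5 and 4.

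The 2 transmembrane collagens gave intervals around 0. Col25a1, a neuronal collagen whose shed form binds amyloid-beta, was at 42.4, 56.4, 38.9, 42.0 and 49.0 CPM in BMAL1 aKO and 45.8, 47.4, 72.3, 44.6 and 31.8 CPM in Cre- (log2 fold change 0.02, 95% interval -0.25 to 0.29). Col23a1 was at 8.36, 26.0, 5.94, 11.03 and 10.96 CPM in BMAL1 aKO and 11.99, 8.47, 19.8, 12.4 and 9.01 CPM in Cre-, with 1 library of each group apart from the rest. Its log2 fold change was -0.16 and turned to 0.10 without BMAL1 aKO replicate 3.

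Fibronectin and the fibulins had 0 of 4 past the threshold. Fn1, made by endothelial cells and fibroblasts, was at 84.9, 81.5, 65.7, 78.9 and 54.8 CPM in BMAL1 aKO and 68.5, 62.5, 102, 94.0 and 67.3 CPM in Cre- (log2 fold change 0.01, 95% interval -0.23 to 0.24). Fbln1, the member with the CACGTG match printed above, was at 6.09, 7.04, 4.26, 4.41 and 3.58 CPM in BMAL1 aKO and 5.86, 3.11, 10.7, 6.74 and 6.57 CPM in Cre-. Its log2 fold change of -0.31 was the lowest of all members and did not pass (95% interval -0.67 to 0.04, adjusted p = 0.344, limma). Fbln5 was at 5.84, 5.20, 2.48, 4.19 and 3.94 CPM in BMAL1 aKO and 3.52, 4.30, 5.82, 4.86 and 3.86 CPM in Cre-, and Fbln2 at 5.36, 7.69, 5.23, 4.24 and 5.02 CPM in BMAL1 aKO and 4.68, 4.62, 11.6, 11.5 and 7.77 CPM in Cre-. The weighted log2 fold changes were 0.04 for Fbln5 and -0.04 for Fbln2, with interval bounds no farther out than -0.47 and 0.41. For Fbln2 the unweighted log2 difference was -0.43, with means of 5.51 ± 1.296 CPM in BMAL1 aKO and 8.05 ± 3.47 CPM in Cre- (SD, n = 5 each, exact permutation p = 0.230).

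The matrix glycoproteins of the neural tissue gave 0 calls of 3 with all libraries. Tnc, or tenascin-C, a glycoprotein of developing and reactive astrocytes, was at 7.17, 13.4, 4.43, 8.86 and 6.41 CPM in BMAL1 aKO, against 5.45, 4.67, 5.82, 3.33 and 4.66 CPM in Cre-. Of the BMAL1 aKO libraries only replicate 3 lay within the Cre- range, and the other 4 were above it. The means were 8.06 ± 3.39 and 4.79 ± 0.95 CPM (SD, n = 5 each), the log2 fold change was 0.41 (95% interval -0.03 to 0.85, adjusted p = 0.323, limma), and the exact permutation test gave p = 0.0476, not adjusted for the 54 members. Without BMAL1 aKO replicate 3 the log2 fold change was 0.64, and over 24 alternatives it ran from 0.27 to 0.83 and passed in 1.

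Tnr, or tenascin-R, a component of perineuronal nets made by oligodendrocytes and interneurons, was at 50.7, 56.8, 62.2, 46.4 and 49.3 CPM in BMAL1 aKO, against 65.8, 47.5, 96.7, 80.7 and 52.6 CPM in Cre-. The BMAL1 aKO libraries lay at the low end of the Cre- range, 1 of them below it. The log2 fold change was -0.26 (95% interval -0.50 to -0.02, adjusted p = 0.275, limma), the exact permutation test gave p = 0.151, and an antisense gene shares 3.44% of its exon bases. Sparcl1 was at 2316, 2132, 2197, 2205 and 2355 CPM in BMAL1 aKO and 2182, 2302, 1588, 1956 and 2409 CPM in Cre- (log2 fold change 0.03, 95% interval -0.12 to 0.18), and it was lowest in Cre- replicate 3, where most matrix genes were highest.

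**Figure D5:**
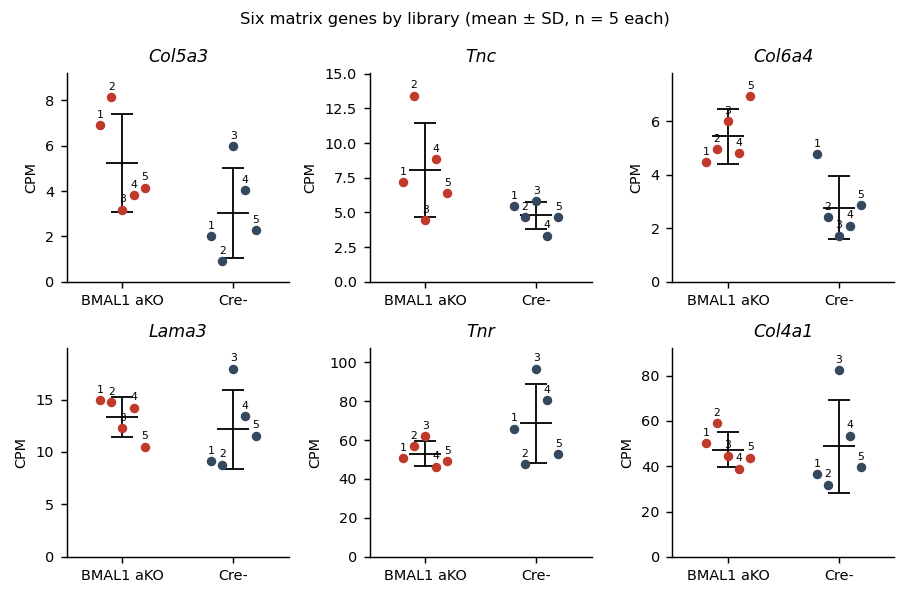
CPM of Col5a3, Tnc, Col6a4, Lama3, Tnr and Col4a1 in each library, numbered by replicate, BMAL1 aKO left and Cre- right, with the mean and SD (n = 5 each). In every panel the groups overlap. For Col6a4 only Cre- replicate 1 (4.76 CPM) reaches the BMAL1 aKO range, and for Tnc only BMAL1 aKO replicate 3 (4.43 CPM) lies in the Cre- range.

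Genes that act on the matrix were described from 4 further lists. Of 23 measured receptors for laminin and collagen (integrins, the dystroglycan complex, Ddr1 and Ddr2), 0 passed in either direction and the median log2 fold change was -0.03. Their smallest adjusted p was 0.355, for Sgce, a sarcoglycan (log2 fold change 0.16, limma). Of 22 genes for collagen folding, modification and crosslinking, 1 rose and 0 fell, with a median of 0.01.

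The gene that rose was P4ha3, an alpha subunit of the prolyl hydroxylase that stabilises the collagen helix. It was at 22.5, 17.2, 11.98, 16.4 and 15.6 CPM in BMAL1 aKO, against 6.69, 10.7, 5.65, 5.32 and 6.64 CPM in Cre-, and the groups did not overlap. The log2 fold change was 1.14 (SE 0.14, with an adjusted p of 0.00287 in limma) and the exact permutation test gave the smallest possible p of 0.00794. It passed in 21 of 24 alternatives and did not pass without weights (adjusted p = 0.144, limma, and 0.104 with BMAL1 aKO replicate 3 also left out) or without Cre- replicate 1 (0.219). The other subunit P4ha1 (log2 fold change -0.10, adjusted p = 0.5997, limma) and the collagen chaperone Serpinh1 (0.00, adjusted p = 0.991, limma) did not pass.

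Of 13 SPARC family and other matricellular genes, 1 rose and 0 fell, with a median of -0.07. Sparc, a collagen-binding glycoprotein and relative of Sparcl1, was at 177, 227, 189, 197 and 225 CPM in BMAL1 aKO, against 145, 175, 240.1, 158 and 130.4 CPM in Cre-. All BMAL1 aKO libraries were above all Cre- libraries except replicate 3, which was the highest of all 10. The log2 fold change was 0.47 (SE 0.09, with an adjusted p of 0.0590 in limma), but the exact permutation test gave p = 0.127, and it passed in 15 of 24 alternatives. It was lost without weights (adjusted p = 0.803, limma, and 0.815 with BMAL1 aKO replicate 3 also left out), with the replicate block (0.198), with Xist as a covariate (0.152), and without BMAL1 aKO replicates 4 or 5 (0.196 and 0.187) or Cre- replicates 1, 4 or 5 (0.868, 0.161 and 0.511).

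Ccn1, an integrin-binding matricellular protein, was at 3.73, 6.31, 10.3, 5.75 and 4.55 CPM in BMAL1 aKO, against 11.2, 5.31, 10.3, 14.4 and 15.0 CPM in Cre- (log2 fold change -0.82, adjusted p = 0.167, limma). It passed without BMAL1 aKO replicate 3 (-1.09, adjusted p = 0.0237, limma). The 10 lecticans, link proteins and related proteoglycans gave 0 calls and a median of 0.04. Ptprz1, the receptor phosphatase whose secreted form is phosphacan, was at 343, 457, 309, 401 and 305 CPM in BMAL1 aKO, against 277, 261, 301, 268 and 275 CPM in Cre-, and the groups did not overlap (log2 fold change 0.34, adjusted p = 0.162, limma, exact permutation p = 0.00794). It passed without BMAL1 aKO replicate 3 (0.41, adjusted p = 0.0588, limma). Ncan (log2 fold change 0.18, adjusted p = 0.281, limma) and Cspg5 (0.17, adjusted p = 0.258, limma), both made by glia, overlapped between groups.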

How the data were processed

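Total RNA of cerebral cortex was taken from 5 BMAL1 aKO and 5 Cre- mice, 1 library per mouse as the labels give them. The CPM values were deposited by the authors as 1 value per gene and library, after alignment with STAR 2.5.1a to the Ensembl release 76 GRCm38 assembly and gene counting by featureCounts 1.4.6-p5 (methods and labels). The kit (SMARTer Ultra Low) does not mark strand. The CPM of a library summed to 991186 to 992702, so no TMM scaling is in them. The value of 1 read was inferred as the largest step, at or below a library's lowest value, of which its values are whole multiples (all within 0.01), and total reads and recovered reads rest on that inferred step.

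Values were taken as log2(CPM + 0.5) for the 12573 genes above 1 CPM in at least 4 libraries and modelled in R 4.3.3 by limma 3.58.1. Each library had a quality weight (arrayWeights), variances followed a level-dependent trend, and p-values were adjusted by Benjamini-Hochberg over all genes (threshold 0.1). The methods describe voomWithQualityWeights on counts with TMM factors, which was run on the recovered reads as an alternative. Because 0.5 is added before the log, changes of low genes are understated. For single genes an exact permutation test (two-sided, difference of mean log2 values) was run as well, whose smallest p is 0.00794. Replicate pairs differed by 12.9 to 448 in chi-square per degree of freedom, far above sampling noise. This is 1 value over all genes for each pair of libraries. It does not give the part of counting noise in single genes, such as the members at low CPM. Alternatives numbered 25. They were other scalings, pseudocounts and filters, no weights, no trend, a replicate block, Xist as a covariate, each library left out and a threshold of 0.05, and those that left out BMAL1 aKO replicate 3 together with voomWithQualityWeights or without weights were added after seeing the data.

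The matrix genes and all lists were chosen with earlier results of these data known. Values by library are given for up to 3 genes of each of 10 member lists with the smallest p, for the most abundant gene of each list and for some others. For the 4 lists of related genes, those past the threshold and a few with the smallest p are named. Exon lengths, positions and overlaps came from GENCODE M21 (GRCm38), in which all 54 members were matched, and promoter windows from RefSeq (GRCm38.p6). Dcn, Fbln2, Col8a1, Col9a3 and the partners of named chains were chosen after their values were seen, as were the 8 pairs of chains, whose correlations have p-values from 100000 permutations of log2 values. Of the 54 members, 1 entered the fits and counts and is not reported here by name. The fit was tested on simulated data. Python 3.11.15, NumPy 2.4.6, pandas 2.3.3, SciPy 1.17.1 and matplotlib 3.10.9 were used for the annotation and the figures.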

Additional observations from a re-analysis of the deposited data

Results flagged for a closer look

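In 5 of the 108 sets of 5 libraries (54 genes in 2 groups), 1 library lay farther from the other 4 than Dixon's limit of 0.71 of the whole range allows, and chance alone gives about 1 in 20 such cases. In BMAL1 aKO replicate 2 these were Col23a1, at 26.0 CPM with the next BMAL1 aKO library at 11.03 CPM, and Col6a2, at 33.6 CPM with the next at 23.2 CPM. In Cre- replicate 3 they were Col6a1, at 199 CPM with the next Cre- library at 89.0 CPM, Col1a2, at 21.02 CPM with the next at 10.8 CPM, and Col9a2, at 7.87 CPM with the next at 4.53 CPM.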

How the results depend on the processing

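The count of matrix genes past the threshold was 0 higher and 0 lower with all libraries. It was 1 higher after quantile normalization (Col5a3) and ran from 0 to 2 higher when 1 library was left out, with the 2 (Col5a3 and Tnc) without BMAL1 aKO replicate 3. With that library left out, voomWithQualityWeights and the fit without weights each called 0 members, so the 2 calls rest on the weighted fit of log2 values. No alternative called a member lower. The log2 fold change of Col11a1 ran from -0.019 (without Cre- replicate 1) to 0.25 (without BMAL1 aKO replicate 1), and the cause was not tested. The medians of the basement membrane and of the fibrillar lists moved by less than the spread between libraries (1 SD, 0.28 and 0.24) under every alternative run. With the replicate block, 0 matrix genes were called, the basement membrane median was -0.17 and 7 of all genes passed. The replicate numbers gave no pairing, since r between libraries of 1 number lay between -0.63 and 0.36 (5 pairs), and 0 BMAL1 aKO libraries and 1 Cre- library correlated best with their own number. Over all genes, 42 passed with all libraries, against 29 with voomWithQualityWeights, 68, 62 and 65 with TMM, median-of-ratios and quantile scaling, 4 without weights, 22 with Xist as a covariate, 844 without BMAL1 aKO replicate 3 and 1 to 54 without any other library. The quality weights did not converge without Cre- replicate 1 or 5. A planned quasi-likelihood fit on the recovered reads was not run.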
